A study of Oryza sativa with 8 samples.

Results

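Phenylalanine ammonia-lyase (PAL) removes the amino group of phenylalanine and so makes cinnamate, the entry compound of the phenylpropanoid pathway. In roots the pathway supplies lignin, the phenolic part of suberin, flavonoids and other soluble phenolics. Plant genomes carry PAL as a small gene family, and in grasses some of its enzymes also accept tyrosine. The genes described here are the 7 PAL loci of a list of locus identifiers drawn up for this account, among 37869 genes in the table: Os02g0626100, Os02g0626400, Os02g0626600, Os02g0627100, Os04g0518100, Os04g0518400 and Os05g0427400. The gene descriptions in the table name PAL for 11 loci, and the 4 others were at or close to 0: Os08g0308300 and Os12g0461050 were listed at 0 in every library, and Os12g0461300 and Os12g0520200 did not exceed 0.0713 and 0.0187 FPKM (fragment counts scaled by transcript length and by the number of mapped fragments of the library).

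The RNA came from roots of the rice cultivar Ilmi at an age of 2 weeks, after germination for 4 days at 28 °C and growth in soil with 3 plants to a pot. Nontransgenic plants (NT, 4 libraries) were compared with ROX OsERF48 plants (ROX, 4 libraries), which overexpress OsERF48, the gene of an AP2/ERF transcription factor, under the root-specific RCc3 promoter. The comparison asks which root transcripts differ when OsERF48 is raised there. The ROX samples came from lines 2 and 6, each a homozygous T3 line with 1 copy of the transgene, but the columns do not name the line, so the lines could not be separated. By the style of their column names the libraries divide into Root libraries and Set libraries, 2 styles with 2 NT and 2 ROX libraries each. The Set names give the transgene but not its promoter, and what else differed between the styles is not given in the sources used here. By the study's methods there were 2 biological replicates, each prepared as 2 technical ones, from these 2 lines. The names do not tell these apart, so p-values measure only the spread between these libraries. A style may hold 1 line or both, so a difference between the styles cannot be told apart from one between the lines.

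OsERF48 checked the labels. It measured 86.2 to 86.6 FPKM in the Root NT libraries and 464 to 470 in the Root ROX libraries, and 59.3 to 65.9 against 612 to 816 in the Set libraries. Libraries of 1 style resembled each other more (Pearson's r across genes 0.962 to 0.997) than libraries of different styles (0.828 to 0.888), where genes are not independent replicates. Depth, recovered from the steps in low FPKM values, was about 37600000 to 43700000 fragments in the Root and 45800000 to 50500000 in the Set libraries. Over genes with 1 transcript and at least 100 fragments, the mean chi-square per gene between the libraries of a pair was 1.33 in Root NT and 2.63 in Root ROX, where counting error alone gives about 1, and 17.2 and 22.9 in the Set pairs. The share of genes past the 5% limit of that statistic was 8.04% in Root NT, 18.1% in Root ROX, 37.7% in Set NT and 43.4% in Set ROX. The Root NT pair thus lay close to counting error, and the Root ROX pair lay above it but below both Set pairs. If each pair is counted as 1 sample, no test within the Root libraries is possible. RCc3 (Os02g0662000), the root marker whose promoter drives the transgene, lay at 307 to 321 FPKM in Root NT, 152 to 161 in Root ROX, 1236 to 1608 in Set NT and 1540 to 1581 in Set ROX. The summed level of 6 green-tissue genes was 29.1 to 30.9 FPKM in Root NT, 14.2 in both Root ROX libraries, 13.3 to 15.5 in Set NT and 8.31 to 9.71 in Set ROX, with none of the 6 at 0 in any library. In a bulk sample, fewer cells of a type and less RNA per cell cannot be told apart.

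The PAL genes form groups on the chromosomes (build IRGSP-1.0). Os02g0626100 (24973448 to 24977287), Os02g0626400 (24985256 to 24989388), Os02g0626600 (24993130 to 24995329) and Os02g0627100 (25006495 to 25009018) lie within 35.6 kb of chromosome 2. Os04g0518100 (25906878 to 25910059) and Os04g0518400 (25927077 to 25929716) lie within 22.8 kb of chromosome 4, and Os05g0427400 (20953643 to 20955793) stands alone on chromosome 5. Their longest transcripts have 2148 to 2593 bases. Introns take 1337 bases of Os02g0626100, 1502 of Os02g0626400 and 673 of Os04g0518100, but 119 of Os02g0627100, 91 of Os04g0518400 and 52 of Os02g0626600, and Os05g0427400 has none. The description of Os04g0518400 calls its product a fragment. Related copies share sequence, and how the authors' counting divided reads among them is not given in the sources used here, so the split of the signal within the family is uncertain.

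A single gene supplied most of the PAL transcript. Os02g0626100 measured 1568 and 1537 FPKM in the Root NT libraries, 1821 and 1837 in Root ROX, 2041 and 1772 in Set NT and 1798 and 1508 in Set ROX. It ranked between 16 and 36 among all genes of a library and held 63.6 to 80.4% of the summed FPKM of the 7 genes. Os02g0626400 came next in all 8 libraries with 10.9 to 22.0%, and Os04g0518400 was lowest in all 8 with 0.154 to 0.405%.

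**Figure D1:**
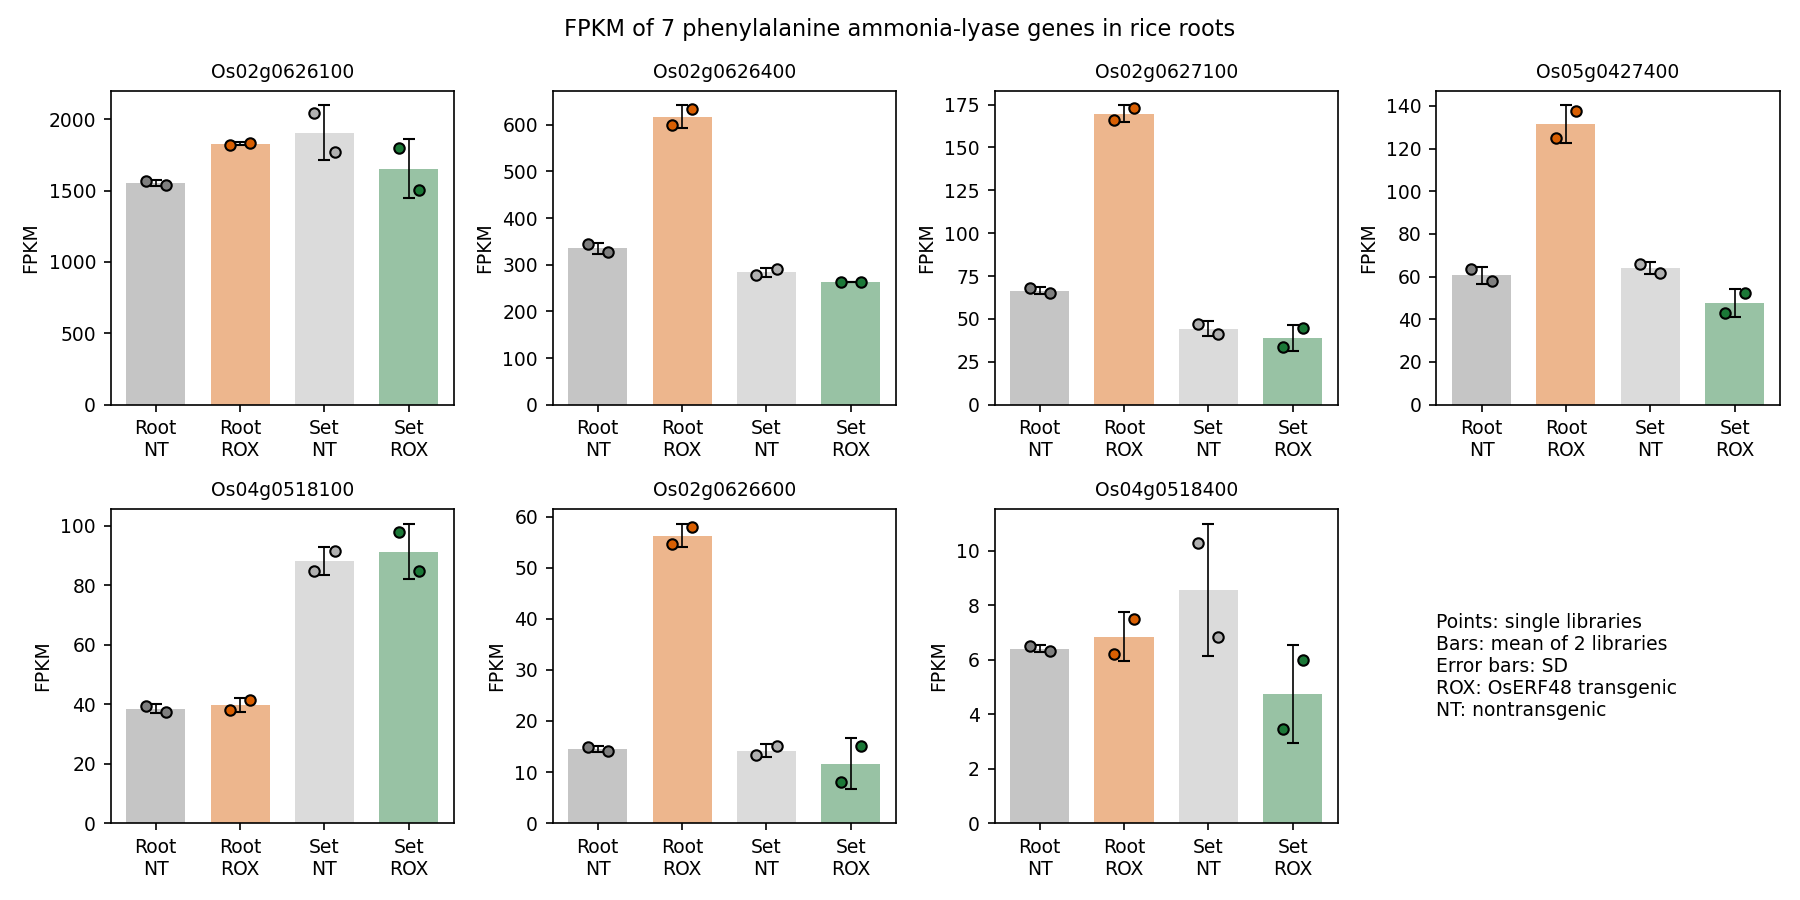
FPKM of each PAL gene (vertical axes, each with its own scale from 0) in the Root and Set libraries of NT and ROX roots; points are libraries, bars the mean of 2 and error bars the SD. Os02g0626400, Os02g0626600, Os02g0627100 and Os05g0427400 stood higher in Root ROX than in every other group, whereas Os04g0518100 separated the Set from the Root libraries.

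Over all 8 libraries, with the library style as a covariate, no PAL gene was called. A call needed a 2-fold difference and an unadjusted p under 0.05 in limma, the limits of the study's methods. It was met by 1.31% of the 26136 genes tested in the higher and 0.314% in the lower direction. None of the 7 had an unadjusted p under 0.05, against 10.0% of all genes with a higher and 17.9% with a lower ROX level. None had an adjusted p (Benjamini-Hochberg, over all genes tested) under 0.05 either, against 2.74% of genes higher and 4.34% lower. The ROX and NT values overlapped for each of the 7, while 2.07% of all genes had every ROX library above every NT library and 3.30% every ROX library below. On the log2(FPKM + 1) scale, which understates the change of low genes, 6 of the 7 differences were positive, with a median of 0.34 against −0.048 over all genes. The highest was that of Os02g0626600, 0.78 (SE 0.43, adjusted p = 0.276), and the lowest that of Os04g0518400, −0.34 (SE 0.23, adjusted p = 0.359). For the dominant Os02g0626100 the difference was 0.014 (SE 0.13, adjusted p = 0.954), with a 95% interval of 0.822-fold to 1.24-fold. Without Set ROX replicate 1, Os02g0626600 passed the call at 1.17 (unadjusted p = 0.0148, adjusted p = 0.0897).

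Within the Root libraries, 5 of the 7 PAL genes rose in ROX by adjusted p and 3 of these were called. The shares over all 25090 genes tested there were 20.8% higher by adjusted p, 32.0% lower, 4.23% called higher and 0.976% called lower. The median difference of the 7 was 0.88, against −0.076 over all genes. The same 5 genes had both ROX libraries above both NT libraries, an order found for 30.0% of all genes, while 47.8% had the opposite order. With no filter on low values Os02g0626100 no longer passed (adjusted p = 0.0929).

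Os02g0626600 showed the largest difference of the family. It measured 15.0 and 14.0 FPKM in Root NT and 54.6 and 57.9 in Root ROX, a 3.88-fold ratio of means. It measured 13.4 and 15.1 FPKM in Set NT and 8.12 and 15.2 in Set ROX. The NT libraries of both styles and the second Set ROX library thus lay at one level, the first Set ROX library below it and the Root ROX libraries above. The difference was 1.89 (SE 0.053, adjusted p = 5.28e-07) among Root and −0.32 (SE 0.28, adjusted p = 0.641) among Set libraries.

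Os02g0627100, its neighbour in the chromosome 2 group, measured 67.9 and 65.1 FPKM in Root NT and 166 and 173 in Root ROX, a 2.55-fold ratio. Its Set NT libraries had 47.3 and 41.4 FPKM and its Set ROX libraries 33.4 and 44.4, so the groups separated among Root libraries and overlapped among Set libraries. The Root difference was 1.34 (SE 0.040, adjusted p = 6.76e-07), and that of the Set libraries was −0.19 (SE 0.16, adjusted p = 0.620).

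Os05g0427400, the intronless gene of chromosome 5, measured 63.4 and 57.9 FPKM in Root NT, 125 and 138 in Root ROX, 65.9 and 61.9 in Set NT and 43.0 and 52.4 in Set ROX. Both ROX libraries lay above both NT libraries among the Root and below them among the Set libraries. The Root ratio was 2.17-fold, with a difference of 1.10 (SE 0.061, adjusted p = 1.16e-05). In the Set libraries the difference was −0.42 (SE 0.12, unadjusted p = 0.0151, adjusted p = 0.200).

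Os02g0626400, the second most abundant PAL gene, measured 344 and 327 FPKM in Root NT and 600 and 635 in Root ROX. In the Set libraries it had 277 and 291 FPKM in NT and 264 and 262 in ROX, again in the opposite order. Its Root ratio of 1.84 missed the 2-fold limit but the difference passed the adjusted p (0.88, SE 0.041, adjusted p = 5.44e-06), and that of the Set libraries did not (−0.11, SE 0.089, adjusted p = 0.621). Os02g0626100 rose by less, 0.24 (SE 0.032, adjusted p = 0.000838) in the Root libraries, and differed by −0.21 (SE 0.18, adjusted p = 0.647) in the Set libraries.

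Neither chromosome 4 gene passed the adjusted p between ROX and NT. Os04g0518100 measured 39.5 and 37.4 FPKM in Root NT, 38.2 and 41.4 in Root ROX, 84.8 and 91.3 in Set NT and 97.8 and 84.7 in Set ROX. ROX and NT overlapped in both styles, with a Root difference of 0.048 (95% interval 0.945-fold to 1.13-fold, adjusted p = 0.489) and a Set difference of 0.049 (0.861-fold to 1.24-fold, adjusted p = 0.871). Os04g0518400 measured 6.50 and 6.33 FPKM in Root NT, 6.21 and 7.49 in Root ROX, 10.3 and 6.84 in Set NT and 3.46 and 6.01 in Set ROX. At this level the Set libraries of 1 group differed by more than 1.5-fold, and the Set difference was −0.75 (SE 0.28, unadjusted p = 0.0429, adjusted p = 0.301). It rested on 413 to 1183 fragments a library, a counting error of up to 4.92%.

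**Figure D2:**
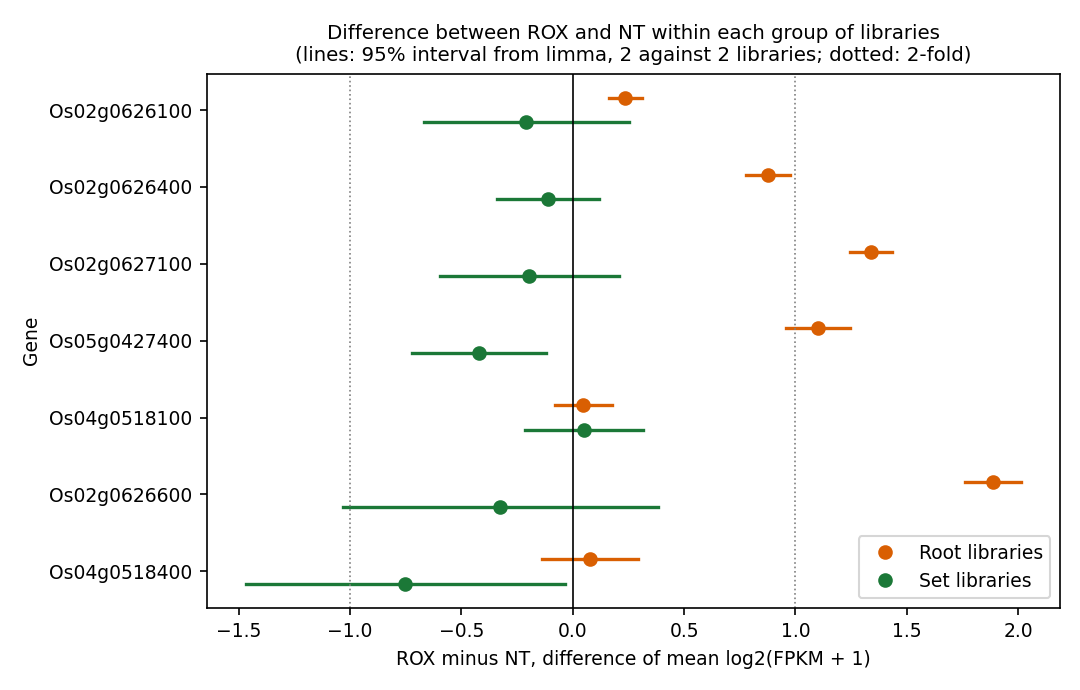
Difference of mean log2(FPKM + 1), ROX minus NT (horizontal axis), for each PAL gene (vertical axis) within the Root and within the Set libraries; lines are 95% intervals from limma and dotted lines mark 2-fold. The Root values reach from 0.048 to 1.89 and the Set values from −0.75 to 0.049.

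Across the Set libraries no PAL gene was called, and 2 of the 7 had an unadjusted p under 0.05 in limma, both with a lower ROX level, against 8.66% of all genes in that direction and 7.18% in the other. Of the 26131 genes tested there, 0.922% were called higher and 0.597% lower, and 0.807% and 0.432% passed the adjusted p. The difference was negative for 6 of the 7, with a median of −0.21 against −0.023 over all genes. Both ROX libraries lay below both NT libraries for 3 of the 7, an order found for 27.6% of all genes, and for none above, against 20.4%. The Os04g0518400 difference was −1.01 without Set NT replicate 2 and −1.08 without Set ROX replicate 2. It was −0.49 without Set NT replicate 1 and −0.42 without Set ROX replicate 1. Each of these fits leaves 1 library in a group.

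The test of the difference itself (limma with 4 group means, Root effect minus Set effect) passed the adjusted p for 4 PAL genes, all with the larger effect in the Root libraries, against 10.7% of all genes in that direction and 10.8% in the other. The differences were 2.21 (SE 0.32, adjusted p = 0.00427) for Os02g0626600, 1.53 (SE 0.18, adjusted p = 0.00175) for Os02g0627100, 1.52 (SE 0.15, adjusted p = 0.000699) for Os05g0427400 and 0.99 (SE 0.092, adjusted p = 0.000643) for Os02g0626400. Os02g0626100 (0.44, adjusted p = 0.109) and Os04g0518400 (0.83, adjusted p = 0.125) did not pass. For Os04g0518100 the value was −0.0011 (95% interval 0.822-fold to 1.21-fold, adjusted p = 0.996).

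OsERF48 itself did not have the larger rise in the Root libraries: its differences were 2.42 among Root and 3.48 among Set libraries, and the Root effect minus the Set effect was −1.06 (adjusted p = 0.00755). RCc3 was lower in ROX among Root libraries, with a difference of −0.998 (limma, adjusted p = 3.36e-06). Among Set libraries it differed by 0.15 (adjusted p = 0.761). Its Root effect minus its Set effect was −1.14 (adjusted p = 0.00467). The green-tissue sum was lower in ROX in both styles, but not every gene in it was. In the Set libraries Os01g0720500 measured 1.70 and 2.44 FPKM in NT and 3.58 and 3.06 in ROX, and Os12g0292400 overlapped. The remaining green-tissue genes had both ROX libraries below both NT libraries in each style. The part of RCc3 and of the green-tissue level in the PAL values was not tested.

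The levels also differed between the styles in NT roots alone. Os04g0518100 was 2.29-fold higher in Set NT than in Root NT (1.17 on the log2 scale, SE 0.085, adjusted p = 1.98e-05). Os02g0627100 (−0.58, SE 0.13, adjusted p = 0.00494) and Os02g0626400 (−0.24, SE 0.065, adjusted p = 0.0130) were lower, while the other 4 did not pass. Without Root NT replicate 1, Os02g0626400 did not pass the adjusted p. Over all genes, 37.8% were higher and 31.2% lower in Set NT by adjusted p, and the median difference of 0.059 became −0.098 after quantile normalisation, so directions between the styles are relative to the scaling.

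The order of the lower PAL genes differed between the groups. After Os02g0626100 and Os02g0626400, Root NT had Os02g0627100, Os05g0427400, Os04g0518100, Os02g0626600 and Os04g0518400 in falling order. In Root ROX, Os02g0626600 stood above Os04g0518100, and in all 4 Set libraries Os04g0518100 followed directly after Os02g0626400. Within each group of 2 libraries, neighbours in the order did not overlap except in Set ROX, where Os05g0427400 (47.7 ± 6.62 FPKM, SD, n = 2) and Os02g0627100 (38.9 ± 7.78) overlapped.

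The summed FPKM of the 7 genes was 2075 ± 41.7 (SD, n = 2) in Root NT, 2850 ± 54.1 in Root ROX, 2410 ± 184 in Set NT and 2110 ± 195 in Set ROX. Without Os02g0626100 the sums were 522 ± 19.7, 1021 ± 43.2, 503 ± 6.15 and 457 ± 10.9 FPKM. The genes other than Os02g0626100 thus took 25.2% of the family's signal in Root NT and 35.8% in Root ROX, and 21.0% and 21.8% in Set NT and Set ROX.

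**Figure D3:**
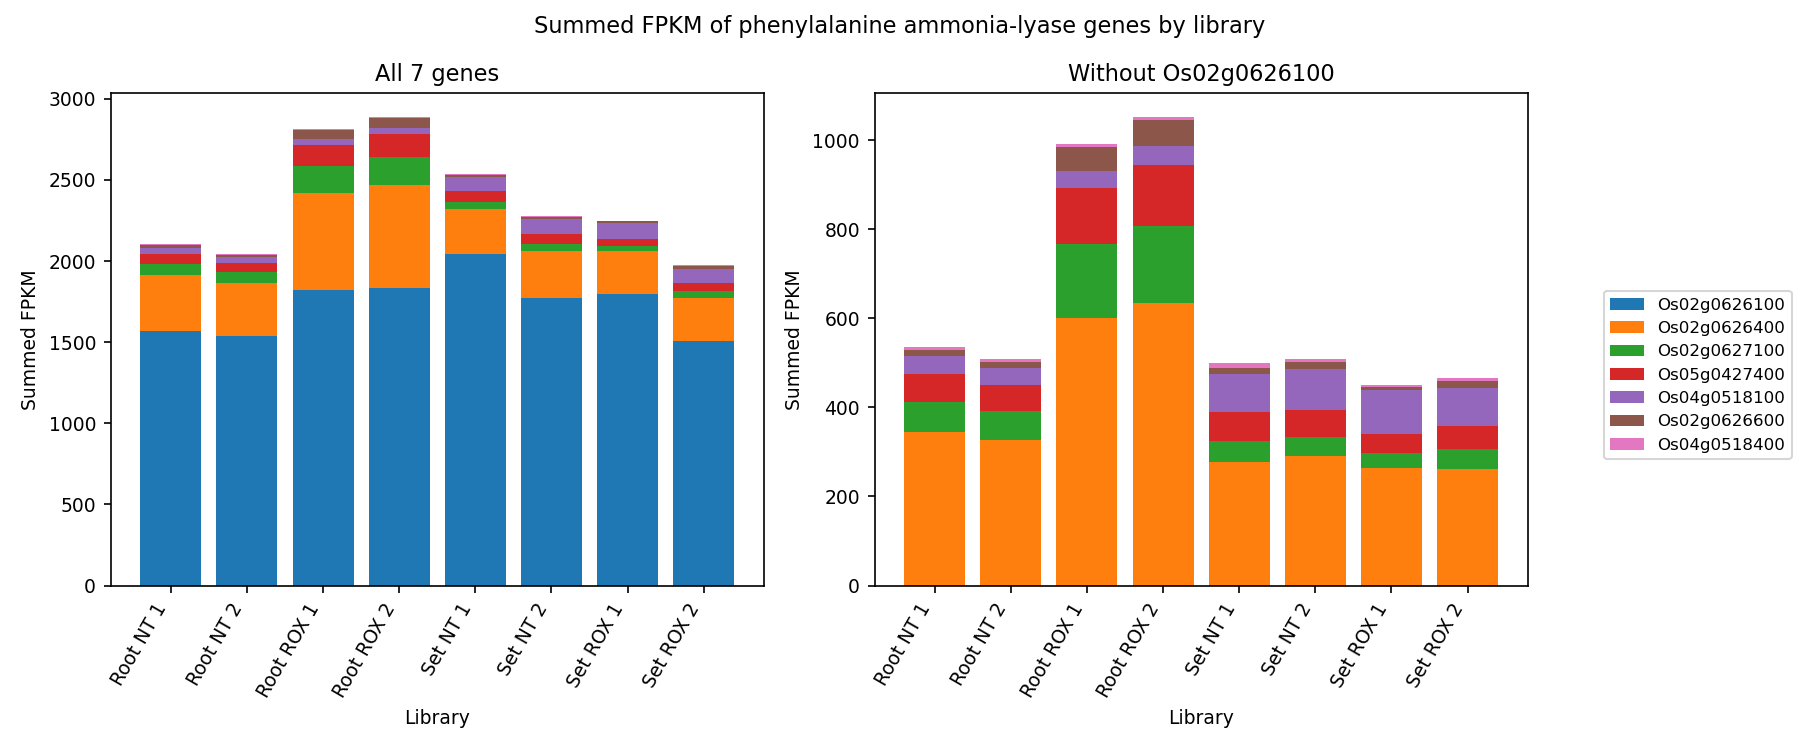
Summed FPKM (vertical axes, from 0) of the PAL genes in each library (horizontal axis), with all 7 genes at the left and without Os02g0626100 at the right; colours are genes. The sum of the other 6 genes was about 991 and 1052 FPKM in the Root ROX libraries and between 450 and 536 in the remaining 6.

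The transcript table splits 2 of the genes into isoforms. For Os02g0626100, the full-length transcript of 2501 bases held 65.5 to 76.4% of the gene's FPKM. Its share overlapped between NT and ROX among Root libraries. Among Set libraries it was 65.5 and 66.4% in NT and 68.7 and 67.3% in ROX, without overlap. A shorter model of 1298 bases at the low-coordinate end held 11.0 to 18.1% in the Root and 25.1 to 29.2% in the Set libraries, and one of 1426 bases held 10.5 to 13.7% and 5.25 to 7.63%. Between NT and ROX, the share of the 1298-base model overlapped among Root libraries but was 29.2 and 26.2% in Set NT and 25.4 and 25.1% in Set ROX, without overlap. The share of the 1426-base model was 10.5 and 12.2% in Root NT and 12.9 and 13.7% in Root ROX, also without overlap, and overlapped among Set libraries. For Os02g0626400, the transcript of 2593 bases held 62.5 to 75.3% and that of 1832 bases 22.7 to 35.0%, and between Root NT and Root ROX both were higher in ROX, by 1.74-fold and 2.11-fold. The share of the 1832-base transcript was 29.3 and 30.9% in Root NT and 35.0 and 33.9% in Root ROX, without overlap. That of the 2593-base transcript was lower in Root ROX, 62.5 and 63.4% against 67.7 and 65.6%. A model of 1589 bases was also lower there, 2.47 and 2.66% against 2.95 and 3.50%. In the Set libraries the share of that model was higher in ROX, 2.02 and 2.07% against 1.09 and 1.81%, and the gene's other shares overlapped. How often shares separate in this way over all transcripts was not computed. For gene FPKM, which is another measure, 30.0% of all genes had both Root ROX libraries above both NT libraries and 47.8% below. In the Set libraries these were 20.4% and 27.6%. They do not give the rate for shares of isoforms. These shares of isoforms are the authors' estimates for overlapping models and carry no test here.

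Genes next to the family members were examined as well. Os02g0626532, a hypothetical gene that overlaps Os02g0626600, measured 1.44 and 1.59 FPKM in Root NT, 5.71 and 6.67 in Root ROX, 1.93 and 1.68 in Set NT and 0.898 and 1.74 in Set ROX. Its values followed those of Os02g0626600, with a Root difference of 1.51 (adjusted p = 2.07e-05) and a Set difference of −0.30 (adjusted p = 0.535). Whether strand was used in the counting is not given in the sources used here, so reads of these overlapping genes cannot be told apart with certainty. Os02g0626200, a noncoding transcript that overlaps Os02g0626100, had differences of 0.37 (adjusted p = 0.0262) among Root and −0.74 (adjusted p = 0.0590) among Set libraries. Os04g0518200, a conserved hypothetical gene between the chromosome 4 members, differed by −0.0038 among Root and −0.21 among Set libraries, and neither passed.

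The neighbouring steps of the pathway were followed in a list of 40 identifiers from the shikimate route to lignin and flavonoid enzymes. Of these, 35 carry a description that matches the step, and 26 of them passed the filter in the 8 libraries. None was called or passed the adjusted p over the 8 libraries. Over all genes, 1.31% were called higher and 0.314% lower, and 2.74% and 4.34% passed the adjusted p. In limma 3 of the list had an unadjusted p under 0.05: Os08g0157500 and Os08g0448000 with a higher and Os03g0819600 with a lower ROX level. Over all genes 10.0% had such a p with a higher and 17.9% with a lower ROX level. In the Root libraries 19 of the 26 tested rose by adjusted p, 2 fell and 5 were called higher, with a median difference of 0.36. Over all genes tested there the shares were 20.8%, 32.0% and 4.23%, and the median was −0.076. In the Set libraries none of the 27 tested was called or passed the adjusted p. There 5 had an unadjusted p under 0.05 in limma, all with a lower ROX level. Over all genes tested there, 8.66% had such a p with a lower and 7.18% with a higher ROX level. The median of the list was −0.076 against −0.023 over all genes. The Root effect exceeded the Set effect by adjusted p for 12 of 26 and the reverse held for 1, against 10.7% and 10.8% of all genes.

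The 5 called genes, named after their values were seen, sit directly before and after PAL or further down. Os04g0406600, a prephenate dehydratase gene on the route to phenylalanine, differed by 1.36 among Root and −0.41 among Set libraries. Cinnamate 4-hydroxylase is the enzyme that takes up the PAL product. Both tested genes with a description matching it were called: Os02g0467600 (1.40 for Root, −0.39 for Set) and Os02g0467000 (1.35 and −0.37). Os02g0467600 measured 8.59 and 8.82 FPKM in Root NT, 23.7 and 25.6 in Root ROX, 15.9 and 12.6 in Set NT and 10.9 and 10.3 in Set ROX. The others were Os08g0448000, a 4-coumarate-CoA ligase gene (1.36 and −0.034), and Os08g0498400, a caffeoyl-CoA O-methyltransferase gene of low level (1.07 and −0.63). For each of these 5 the Root effect was larger than the Set effect by adjusted p. Os05g0320700, listed for cinnamate 4-hydroxylase without a matching description, was not called. It had a mean of 125 FPKM, against 14.6 for Os02g0467600, and differed by 0.85 among Root and −0.078 among Set libraries.

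Among listed genes with a matching description, the most abundant gene was called at prephenate dehydratase and cinnamate 4-hydroxylase. At every other tested step it moved less than the called genes. At 4-coumarate-CoA ligase the called gene had a mean of 14.1 FPKM, against 99.4 for the most abundant. At caffeoyl-CoA O-methyltransferase the means were 2.00 and 420 FPKM. Upstream of phenylalanine, the Root differences were 0.39 for Os03g0389700 (DAHP synthase, the entry to the shikimate route), 0.75 for Os06g0133900 (EPSP synthase) and 0.50 for Os01g0764400 (chorismate mutase). Downstream, they were 0.40 for Os02g0177600 (4-coumarate-CoA ligase), 0.41 for Os02g0611800 (hydroxycinnamoyltransferase), 0.43 for Os05g0494000 (coumarate 3-hydroxylase), 0.55 for Os08g0498100 (caffeoyl-CoA O-methyltransferase) and 0.45 for Os08g0157500 (caffeic acid O-methyltransferase). The last lignin steps gave 0.27 for Os08g0441500 (cinnamoyl-CoA reductase) and 0.24 for Os02g0187800 (cinnamyl alcohol dehydrogenase). All 10 passed the adjusted p in the Root libraries and none in the Set libraries. Os03g0819600, the chalcone isomerase gene of the flavonoid branch, differed by −0.084 and −0.18 and passed in neither. With a matching description, the genes that fell by adjusted p in the Root libraries were Os08g0245200 (4-coumarate-CoA ligase, −0.25) and Os08g0484500 (DAHP synthase, −0.44). Os07g0622200, listed for DAHP synthase without a matching description, had a mean of 115 FPKM, against 74.5 for Os03g0389700. It differed by 0.68 among Root and −0.26 among Set libraries. Os10g0194200, listed for cinnamyl alcohol dehydrogenase and also without a match, differed by −0.18 and −0.15. The listed genes with a description matching ferulate 5-hydroxylase (Os03g0112900) and chalcone synthase (Os11g0530600) had mean levels of 0.067 and 0.050 FPKM and were not tested. Of those listed for ferulate 5-hydroxylase without a matching description, Os06g0349700 had a mean of 0.022 FPKM and Os10g0512400 one of 29.7. In limma Os10g0512400 differed by 0.39 among Root (adjusted p = 0.000359) and −0.55 among Set libraries (adjusted p = 0.261).

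**Figure D4:**
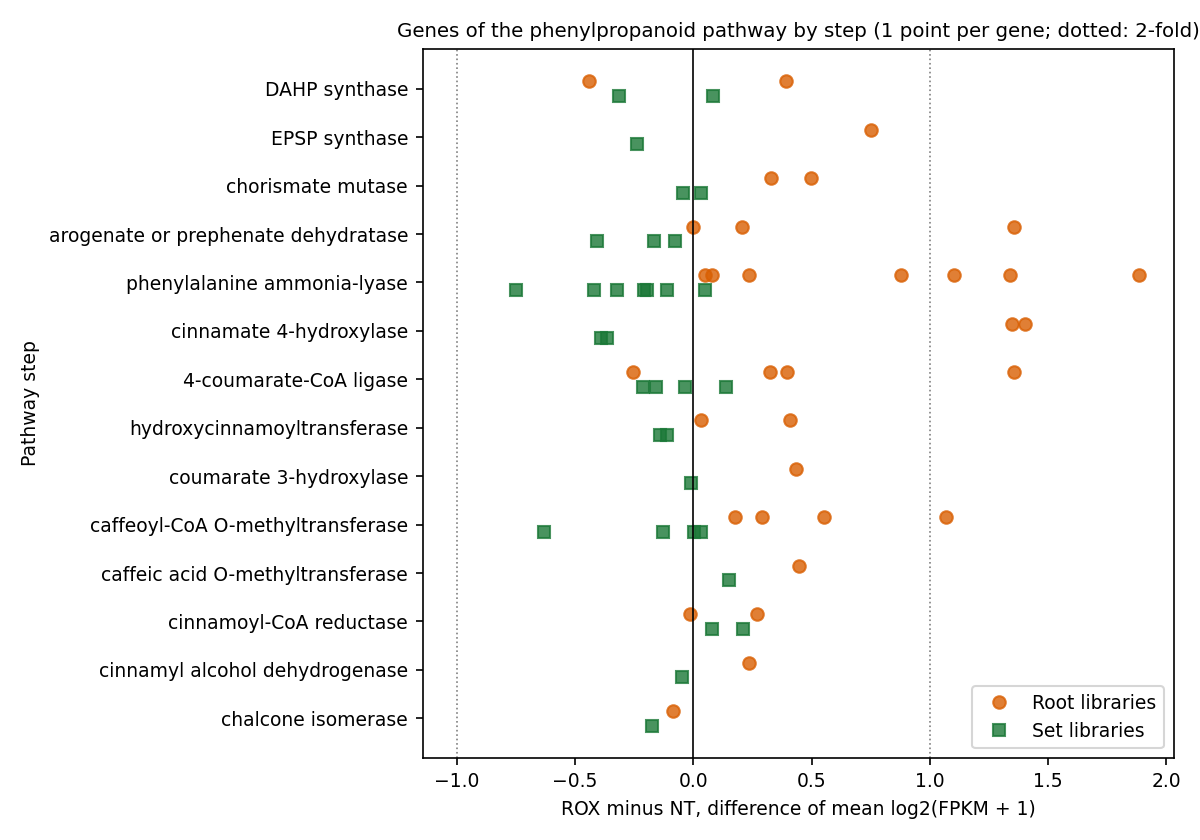
Difference of mean log2(FPKM + 1), ROX minus NT (horizontal axis), for the PAL genes and each neighbouring pathway step (vertical axis). The steps show the tested genes with a matching description, 1 point per gene. Circles are the Root and squares the Set libraries, and dotted lines mark 2-fold. Circles beyond 2-fold occur at dehydratase, PAL, cinnamate 4-hydroxylase, 4-coumarate-CoA ligase and caffeoyl-CoA O-methyltransferase, and no square reaches it.

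Among genes outside the family with a mean of at least 5 FPKM, those most like Os02g0626100 across the 8 libraries were Os03g0111100 (dihydrofolate synthetase, Pearson's r = 0.942), Os03g0179400 (Avr9/Cf-9 induced kinase, r = 0.932) and Os03g0584300 (conserved hypothetical, r = 0.926). These coefficients describe 8 libraries that fall into 2 styles and are given without a test.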

How the data were processed

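The tables the authors deposited hold FPKM of genes and of transcripts for build IRGSP-1.0, made from strand-specific libraries by a service provider; the aligner and quantifier are not given in the sources used here. The transcript lengths were also deposited by the authors. Each table has 4 columns that match no sample, which were not used. For all 37869 genes the gene value equalled the sum over transcripts within 1%. The members and lists were chosen with earlier results of these data known. All 7 members were named, with the 3 genes most like the most abundant member. For each pathway step, the most abundant gene with a matching description was named. Listed genes without a matching description were left out of the counts.

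Genes whose mean reached 0.5 FPKM were fitted on log2(FPKM + 1) with limma 3.58.1 (variance trend, R 4.3.3), with library style as a covariate, within each style, and with 4 group means. P-values were adjusted by the Benjamini-Hochberg method over all genes tested. Depth came from FPKM steps of genes with 1 transcript, with 180 bases taken off the length: 92.5 to 93.9% of values of up to 6 fragments came out whole within 0.1. Alternatives were the covariate, a replicate block, pseudocount, filter, scaling, trend, averaged pairs and each library left out. Some alternatives for the within-style and between-style fits were added after the data were seen.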

Additional observations from a re-analysis of the deposited data

Results flagged for a closer look

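In the 4 ROX libraries, Os02g0626100 was lowest in Set ROX replicate 2, at 1508 FPKM, and its gap to the next library was 0.884 of the group's range. In the 4 NT libraries, Os04g0518400 was highest in Set NT replicate 1, at 10.3 FPKM, with a gap of 0.870 of the range. The limit is one that chance passes in about 1 in 20 groups of 4 like samples; 14 groups were searched, and each pools 2 Root and 2 Set libraries, which differ by style.

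The difference between ROX and NT was larger in the Root than in the Set libraries, by limma's interaction test, for Os02g0626400 (0.99 on the log2 scale), Os02g0626600 (2.21), Os02g0627100 (1.53) and Os05g0427400 (1.52).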

How the results depend on the processing

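Of 511 values of the 7 genes under alternatives, 476 counted as unchanged. For ROX against NT this meant the same direction and the same side of the call. For the Root effect minus the Set effect, and for Set against Root in NT, it meant the same direction and side of the adjusted p limit. Log2 ratios of mean FPKM, which carry no test, counted if they differed from the main value by less than the SD within groups. The 5 Root rises passed the adjusted p under every alternative run within the Root libraries except for Os02g0626100 with no filter, and the 4 differences between the styles under every one run for them. Over 8 libraries the 343 genes called higher became 196 without the style covariate, 518 with a pseudocount of 0.1, 226 with a minimum mean of 5 FPKM, 173 with pairs averaged and 222 to 460 with 1 library left out. The 82 called lower became 41, 284 and 48 in the first 3 of these. The PAL genes called higher there numbered 0 to 1 with 1 library left out (1 without Set ROX replicate 1). Log2 ratios of mean FPKM were 0.51 for Os02g0626400, 1.24 for Os02g0626600, 0.91 for Os02g0627100 and 0.52 for Os05g0427400. In the Root libraries the 245 genes called lower became 687 (pseudocount 0.1) and 132 (minimum 5). In the Set libraries the 241 called higher became 376 and 134, and the 156 called lower became 396 and 70, or 121 to 313 with 1 library left out (313 without Set NT replicate 2). PAL genes called lower there numbered 0 to 1. With 1 library left out, the genes past the adjusted p with a larger Root effect (2806) numbered 1555 to 3051 and those with a larger Set effect (2821) 976 to 3182, the low counts coming without any 1 of the 4 Root libraries. The PAL genes higher in Set NT than Root NT (1) became 2 with a minimum of 5 FPKM, quantile normalisation or no trend and numbered 1 to 2 with 1 library left out, and those lower (2) numbered 1 to 2. The cause of these moves was not tested.

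Reversals concerned values that passed no test. Os04g0518100 had −0.00047 over 8 libraries and −0.0091 in the Root libraries after quantile normalisation, and 0.012 for the Root effect minus the Set effect after median ratio scaling. With 1 library left out its values were −0.010 to 0.11 (Root), −0.053 to 0.15 (Set) and −0.10 to 0.10 (Root minus Set). Others that crossed 0 in this way were Os02g0626100 over 8 libraries (−0.036 to 0.11), Os04g0518400 in the Root libraries (−0.041 to 0.19), Os02g0626600 (−0.74 to 0.088) and Os02g0627100 (−0.39 to 0.0057) in the Set libraries and Os02g0626600 between the NT groups (−0.11 to 0.053).

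Same-numbered ROX and NT libraries deviated together with r = 0.0238 among Root and 0.257 among Set libraries, and no label says what a number marks, so the numbers were not taken as pairs. With a replicate block by number over 8 libraries, 244 genes were called higher and 75 lower, with 0 PAL genes among them. Blocks within each style, chosen after seeing the data, changed no call of a PAL gene: 243 genes were called higher and 171 lower among Set libraries, and Os02g0626100 had an adjusted p of 0.630 there (limma).

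Counting error was at most 4.92% in the PAL genes with 1 transcript. The study names biological and technical replicates, but the columns do not show which libraries are which.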
